A study of Mus musculus with 12 samples.

Results

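Cytochrome P450 enzymes of families 1 to 3 are the heme enzymes with which hepatocytes oxidize drugs, pollutants, steroids and fatty acids. They sit in the endoplasmic reticulum, take electrons from cytochrome P450 oxidoreductase, and are named by family (number), subfamily (letter) and gene. Their genes lie in clusters of close copies, several are used mostly around the central vein of the liver lobule, and in mice some differ between the sexes. The members described here are the 61 protein-coding genes of the count table whose names give a family from 1 to 3, a subfamily of 1 letter and a gene number, of 56748 genes in all. A further 40 P450 genes fall outside this pattern, nearly all of them in other families. The members were picked by name, and the families were chosen with earlier results of these data known.

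Liver RNA was sequenced from mice fasted for 24 h, with 4 livers in each of 3 groups. SKO livers had a liver-specific KO of CPT2, the inner-membrane carnitine palmitoyltransferase that mitochondria need to burn long-chain fatty acids. DKO livers had the same KO plus a liver-specific KO of ATF3, a stress-induced transcription factor. WT livers came from floxed control mice, given in the labels as floxed for CPT1A, CPT1B and CPT2, whereas the study describes its controls for these KOs as floxed for Atf3 and Cpt2. The KOs were made by Albumin-Cre, which acts in hepatocytes and cells of their lineage, so that other liver cells keep both genes, and the labels give no age.

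The libraries held 14710304 to 20030055 counts, so that 3 counts, taken as the limit of detection, equal 0.145 to 0.196 CPM (a liver's count of a gene divided by its library size, TMM-normalized over the 12 livers, and multiplied by 1000000). The targeted Cpt2 had 199 to 252 CPM in WT livers against 108 to 157 CPM in SKO and 101 to 127 CPM in DKO livers, and reads from outside a deleted part of a gene can remain in a KO. Atf3 stood at 1.77, 1.21, 1.11 and 2.16 CPM in WT and 24.5, 53.4, 29.2 and 14.5 CPM in SKO livers, against 7.92, 10.7, 13.6 and 0.270 CPM in DKO livers 1 to 4. The study describes the sequenced mice as males, and the labels give no sex. SKO liver 3 had 18063 and DKO liver 4 had 20855 counts of Xist, the RNA of the inactive X chromosome, with 2 and 0 counts of Y-linked genes. The other 10 livers had 1 to 19 counts of Xist and 2741 to 4294 Y-linked counts. These 2 Xist-high livers go against the study's description and may not come from the mice their labels name, which was not tested. Their Cpt2 levels of 108 and 101 CPM were below every WT liver. They are called SKO liver 3 and DKO liver 4 by label only, and the main counts and the values that turn on them are given with and without them.

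P450 RNA of families 1 to 3 was lower in SKO livers and in DKO livers 1 to 3 than in every WT liver, while DKO liver 4 lay within the WT range. The 61 genes summed to 26953 ± 2482 CPM in WT (SD, n = 4), 12896 ± 2154 CPM in SKO (SD, n = 4) and 13964 ± 2071 CPM in DKO livers 1 to 3 (SD, n = 3), against 28694 CPM in DKO liver 4. The WT and SKO ranges did not overlap, at 23738 to 29033 and 10443 to 14775 CPM. Without Cyp2e1, the most abundant member, the sums were 16004 ± 679 CPM in WT and 6139 ± 1007 CPM in SKO livers (SD, n = 4 each).

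In SKO against WT livers, 42 of the 61 members had enough counts to be tested, and 31 fell and 1 rose (edgeR quasi-likelihood test on 8 livers, Benjamini-Hochberg adjusted p under 0.05 over all genes tested). Among all 14261 genes tested, 15.4% fell and 16.7% rose. The median log2 fold change was -1.20 over the tested members and 0.03 over all genes tested. In 27 members every SKO liver was below every WT liver, which held for 16.6% of all genes tested, and in 0 members was every SKO liver above, against 16.4%. Without SKO liver 3, 34 members fell and 1 rose, where 15.2% of all genes tested fell and 17.3% rose, and the 31 that fell with all livers were among the 34.

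In DKO against WT livers, 5 of 40 tested members fell and 0 rose with all livers, among 14448 genes of which 4.39% fell and 6.06% rose. At an unadjusted p under 0.05 13 members were lower and 3 higher, where 12.8% and 16.6% of all genes tested were. DESeq2 called 11 members and 8.58% of all genes tested lower. It gave no adjusted p for several tested members, such as Cyp1a2, Cyp2c29, Cyp2c37 and Cyp2c70, which count here as not called. Without DKO liver 4, 31 of 40 members fell and 0 rose, where 17.5% of 14634 genes fell and 18.4% rose, and the median log2 fold change of the members moved from -0.66 to -1.26. The SKO and DKO comparisons use the same WT livers. In the heat map of the tested members, DKO liver 4 departs from the other DKO livers in most rows.

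**Figure D1:**
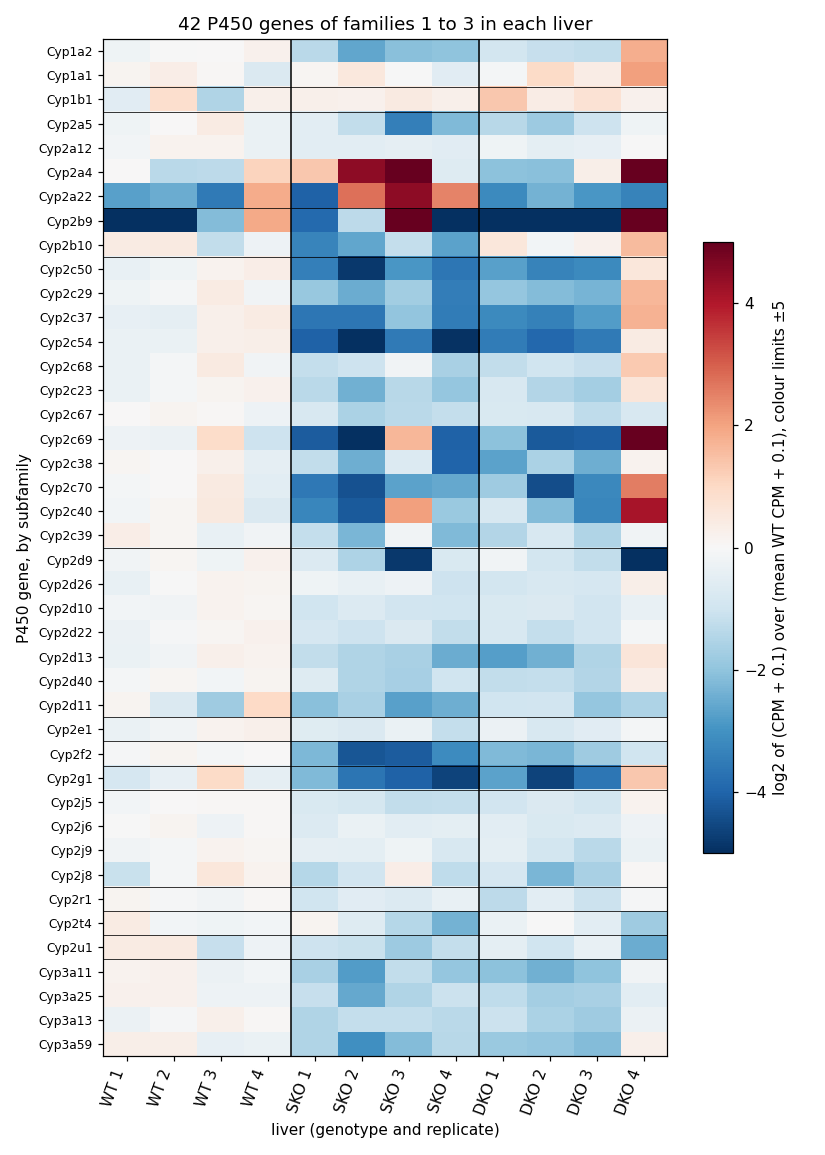
Each row is 1 of the 42 P450 genes tested in SKO against WT, grouped by subfamily, and each column is 1 of 12 livers, with colour giving the log2 of CPM + 0.1 over the mean WT CPM + 0.1 (limits ±5). Most rows are blue (below WT) in the SKO livers and in DKO livers 1 to 3, whereas DKO liver 4 is near or above WT in most Cyp2c and Cyp3a rows.

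The Cyp2c subfamily, whose enzymes oxidize drugs and turn arachidonic acid into epoxides, had the lowest ratio of SKO to WT after Cyp2f among the subfamilies with a sum over 100 CPM in WT. Its 15 genes lie in the annotated interval 38995463 to 44017647 of chromosome 19, in the coordinates of the authors' table, and 14 of them had counts. Their sum was 2080.4, 2229.9, 3026 and 2802 CPM in WT livers 1 to 4, 532, 345, 795 and 344 CPM in SKO livers, and 619, 521, 485 and 6176 CPM in DKO livers. Every SKO liver and DKO livers 1 to 3 lay below every WT liver, and DKO liver 4 lay above every WT liver. The mean of the sums was 0.199 of WT in SKO, 0.214 in DKO livers 1 to 3 and 2.44 in DKO liver 4. Of 12 tested Cyp2c genes, 10 fell in SKO livers and 12 without SKO liver 3, where 15.4% and 15.2% of all genes tested fell. In DKO livers 1 of 12 fell with all livers in and 12 without liver 4, where 4.39% and 17.5% of all genes tested fell.

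With all livers in, Cyp2c54 had the largest fall of any tested member in SKO livers, at 272, 272, 409 and 428 CPM in WT and 20.9, 7.44, 29.5 and 11.2 CPM in SKO livers. The groups did not overlap, and the fall was 19.8-fold (log2 fold change -4.31 ± 0.39 SE, edgeR adjusted p = 1.71e-05). In DKO livers Cyp2c54 stood at 30.8, 22.6, 30.1 and 463 CPM, so that livers 1 to 3 were close to the SKO values and liver 4 was above the WT range. Its log2 fold change against WT was -1.32 ± 0.91 SE with all DKO livers (edgeR adjusted p = 0.363) and -3.62 ± 0.22 SE without liver 4 (edgeR adjusted p = 1.02e-06).

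Cyp2c50, which like Cyp2c54 makes epoxides of arachidonic acid, was at 518, 574, 753 and 850.0 CPM in WT, 63.3, 23.7, 90.0 and 54.2 CPM in SKO and 102, 65.9, 74.6 and 1000.5 CPM in DKO livers. Its log2 fold change was -3.53 ± 0.35 SE in SKO (edgeR adjusted p = 2.56e-05) and -3.05 ± 0.22 SE in DKO without liver 4, against -1.10 ± 0.82 SE with it. Cyp2c70, the enzyme that makes muricholic acids in mouse bile, was at 36.1, 39.6, 52.4 and 26.9 CPM in WT, 3.20, 1.82, 5.95 and 6.53 CPM in SKO and 11.3, 1.70, 4.01 and 228 CPM in DKO livers. It fell 8.76-fold in SKO livers (edgeR adjusted p = 5.51e-05, 0.0602 and not called in 1 fit over 12 livers), and DKO liver 4 had over 4 times the highest WT value. Cyp2c37 was at 287, 277, 452 and 496 CPM in WT and 30.8, 31.2, 97.1 and 33.7 CPM in SKO livers, and Cyp2c29 at 377, 407, 576 and 390.1 and 118, 77.3, 129 and 40.3 CPM. Both fell without overlap of the groups, by 2.96 and 2.25 on the log2 scale in SKO livers (edgeR adjusted p = 0.000172 and 0.000254). Without SKO liver 3, Cyp2c37 fell by 3.54 on that scale. In DKO livers their log2 fold changes were -0.11 and -0.04 with all livers and -3.09 and -2.11 without liver 4, where Cyp2c37 stood at 1249.9 and Cyp2c29 at 1384 CPM. In DKO livers 1 to 3 they were at 41.7, 36.5 and 53.8 and 116, 97.7 and 87.6 CPM, below every WT liver.

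The Cyp3a subfamily holds the main enzymes of drug and steroid oxidation, and its sum was below WT in every KO liver. Its sum over 9 genes was 5452, 5605, 4114 and 4284 CPM in WT, 1804, 819.7, 1962 and 1655 CPM in SKO and 1504, 1150.2, 1348 and 4060.5 CPM in DKO livers. All 4 tested genes, Cyp3a11, Cyp3a13, Cyp3a25 and Cyp3a59, fell in SKO livers, where 15.4% of all genes tested fell. In DKO livers 1 of the 4 fell with all livers in and 4 without liver 4 (4.39% and 17.5% of all genes tested). Cyp3a11, the most abundant of them in CPM and a classic target of the pregnane X receptor, was at 3296, 3425, 2442 and 2653 CPM in WT and 970.4, 429, 1257 and 769 CPM in SKO livers. The groups did not overlap, with a log2 fold change of -1.77 ± 0.28 SE (edgeR adjusted p = 0.000566). In DKO livers it was at 715, 564, 741 and 2606 CPM, where liver 4 lay within the WT range, and the log2 fold change was -1.34 ± 0.46 SE with it (edgeR adjusted p = 0.0895) and -2.12 ± 0.17 SE without it (edgeR adjusted p = 6.07e-06). Cyp3a25 was among the 5 members lower in DKO livers with all livers in, at 1854, 1847, 1311 and 1309 CPM in WT, 717, 271, 563 and 758 CPM in SKO and 649, 481, 515 and 1106 CPM in DKO livers. Its log2 fold change was -1.44 ± 0.28 SE in SKO (edgeR adjusted p = 0.00232) and -1.19 ± 0.28 SE in DKO livers (edgeR adjusted p = 0.0319), and every SKO and DKO liver was below every WT liver.

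The plot of subfamily sums shows the levels of the 8 most abundant subfamilies. For the Cyp2d subfamily, whose enzymes oxidize drugs and steroids, the sum was 0.501 of WT in SKO and 0.560 in DKO livers 1 to 3, and 0.599 in DKO liver 4. For Cyp2j, which makes epoxides of fatty acids, the ratios were 0.535, 0.560 and 1.08, and for Cyp2a, which oxidizes coumarin and steroids, 0.505, 0.526 and 1.10.

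**Figure D2:**
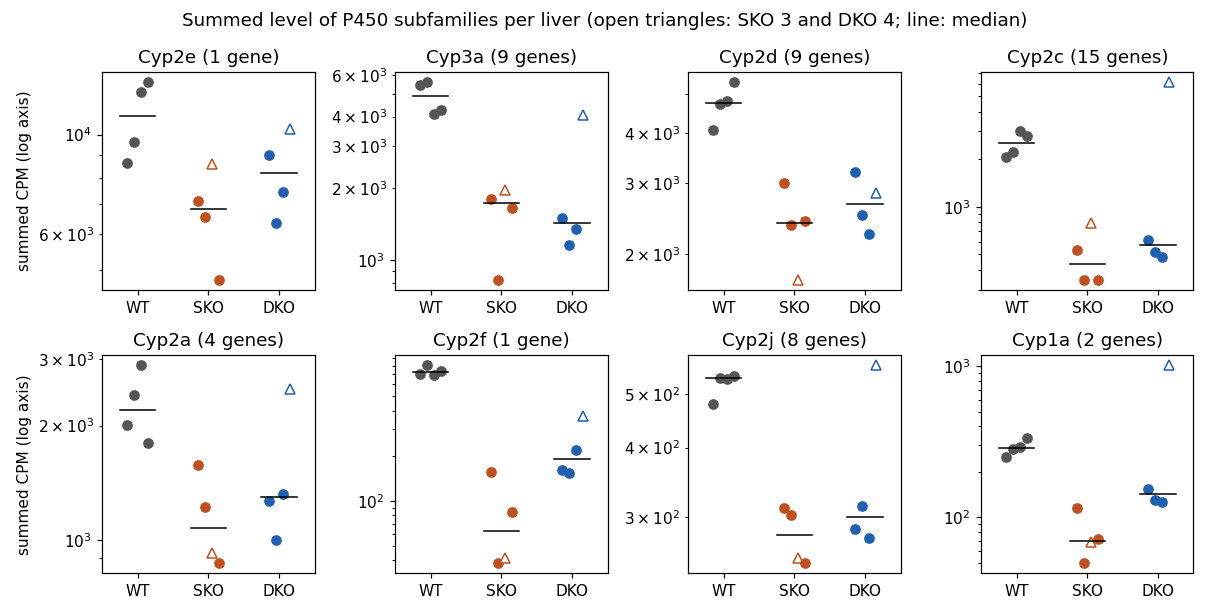
Each panel plots the summed CPM of 1 subfamily on a log axis for 4 WT, 4 SKO and 4 DKO livers, with a line at each group's median and open triangles for SKO liver 3 and DKO liver 4. SKO livers and DKO livers 1 to 3 lie below WT in all 8 panels except Cyp2e, where DKO liver 1 overlaps WT, while DKO liver 4 is above every WT liver in Cyp2c, Cyp2j and Cyp1a and within the WT range in Cyp2a and Cyp2e.

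Cyp2e1, which oxidizes ethanol, acetone and many small solvents, was the most abundant member by CPM per kilobase of gene length in each group. It was at 8659.8, 9638, 12401 and 13096 CPM in WT, 7124, 6574, 8582 and 4747 CPM in SKO and 8992, 6359, 7465 and 10266 CPM in DKO livers. Every SKO liver was below every WT liver, by less than for most members called lower, with a fall of 1.60-fold (log2 fold change -0.68 ± 0.21 SE, edgeR adjusted p = 0.0263). The call was lost without WT liver 3, WT liver 4 or SKO liver 2 (edgeR adjusted p up to 0.0754). In DKO livers the log2 fold change was -0.39 ± 0.23 SE (edgeR adjusted p = 0.295) and -0.52 ± 0.18 SE without liver 4 (edgeR adjusted p = 0.0444), with overlapping groups in both.

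Cyp1a2, the pericentral enzyme that oxidizes caffeine and a target of the aryl hydrocarbon receptor, was at 249, 281, 291 and 333 CPM in WT, 115, 48.2, 67.8 and 70.9 CPM in SKO and 154, 128, 124 and 1017 CPM in DKO livers. It fell 3.79-fold in SKO livers (log2 fold change -1.92 ± 0.23 SE, edgeR adjusted p = 9.72e-05). In DKO livers 1 to 3 it lay between the SKO and the WT values, and in liver 4 it was over 3 times the highest WT value. The log2 fold change of DKO against WT was 0.32 ± 0.65 SE with all livers and -1.08 ± 0.13 SE without liver 4 (edgeR adjusted p = 0.000107). Its neighbour Cyp1a1, the most inducible target of the same receptor, was low in every liver, at 0.498 to 3.94 CPM, and was not called in SKO or DKO livers.

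Cyp2f2, the periportal member that activates naphthalene, was at 704, 809, 699 and 741 CPM in WT, 156, 38.0, 41.4 and 84.3 CPM in SKO and 161, 152, 218 and 368 CPM in DKO livers. Every KO liver, DKO liver 4 included, was below every WT liver. Its log2 fold change was -3.19 ± 0.40 SE in SKO (edgeR adjusted p = 0.000129), -1.70 ± 0.27 SE in DKO (edgeR adjusted p = 0.0104) and -2.05 ± 0.15 SE in DKO without liver 4 (edgeR adjusted p = 2.98e-06). Cyp2f2 is the 1 member of the periportal list, and the 8 members of the pericentral list, Cyp2e1, Cyp1a2, Cyp2c29, Cyp2c37, Cyp2c50, Cyp2c54, Cyp2a5 and Cyp3a11, all fell in SKO livers. In DKO livers 0 of these 8 were called with all livers in, and 8 fell without liver 4. Among genes that are not members, 8 of 12 pericentral and 8 of 12 periportal genes fell in SKO livers, with 0 and 1 higher. Of all genes tested, 15.4% fell and 16.7% rose. The periportal list includes Cyp17a1, a P450 gene of another family. In DKO livers 0 pericentral and 2 periportal genes fell with all livers in (4.39% of all genes tested), and 9 and 8 without liver 4 (17.5%), with 0 and 1 higher in both fits.

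The other members called lower in DKO livers with all livers in were Cyp2c67, Cyp2d10 and Cyp2j6. Cyp2d10 was at 814, 806, 1034 and 974 CPM in WT, 482 ± 50.6 CPM in SKO (SD, n = 4) and 536, 546, 470.4 and 697 CPM in DKO livers, with all KO livers below all WT livers. Cyp2c67 was at 179, 197, 185 and 148 CPM in WT and 106, 102, 73.0 and 102 CPM in DKO livers, and Cyp2j6 at 60.7, 67.7, 51.6 and 63.0 and 41.9, 36.0, 37.3 and 51.6 CPM, the highest DKO value of Cyp2j6 just under its lowest WT value. Their log2 fold changes in DKO livers were -0.68 for Cyp2d10, -0.88 for Cyp2c67 and -0.53 for Cyp2j6 (edgeR adjusted p = 0.0347, 0.0141 and 0.0463). Leaving out any 1 liver other than DKO liver 4, or fitting the replicate number as a block, ended the calls of Cyp2d10, Cyp2j6 and Cyp3a25 (edgeR adjusted p up to 0.0976, 0.128 and 0.0927). Leaving out WT liver 1 or 2 ended that of Cyp2c67 (up to 0.0557). In 7 members, namely Cyp2c67, Cyp2d10, Cyp2f2, Cyp2j6, Cyp2j9, Cyp3a13 and Cyp3a25, every DKO liver was below every WT liver, which held for 8.92% of all genes tested. Cyp2j5, the main Cyp2j enzyme of mouse liver, was at 393, 439.7, 447 and 444 CPM in WT, 252, 234, 185 and 188 CPM in SKO and 223, 262, 227 and 488 CPM in DKO livers. It fell by 0.99 on the log2 scale in SKO livers (edgeR adjusted p = 0.000268), and in DKO livers the log2 fold change was -0.51 with and -0.85 without liver 4.

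Further members differed in level and in the size of their change. Cyp2a12, a hepatic steroid hydroxylase, was at 739, 921, 921 and 645 CPM in WT, 561, 563, 590.4 and 538 CPM in SKO and 699, 579, 607 and 803 CPM in DKO livers. It fell by 0.50 on the log2 scale in SKO livers (edgeR adjusted p = 0.0198, up to 0.0682 without WT liver 2 or 3, where the call was lost), with DKO livers 1 and 4 within the WT range. Cyp2j6 fell by 0.49, from the WT values above to 38.3, 47.9, 42.4 and 43.1 CPM in SKO livers (edgeR adjusted p = 0.0101). Cyp2r1, a vitamin D 25-hydroxylase, was at 11.3, 9.73, 9.00 and 10.8 CPM in WT and 5.06, 6.83, 6.37 and 7.87 CPM in SKO livers, without overlap, a fall of 0.63 (edgeR adjusted p = 0.0177) that was not called in 1 fit over 12 livers (edgeR adjusted p = 0.0752). Cyp2u1, which hydroxylates long-chain fatty acids, was at 17.5, 18.0, 5.87 and 10.8 CPM in WT and 6.34, 5.97, 3.62 and 5.69 CPM in SKO livers, with 1 WT liver inside the SKO range, a fall of 1.26 (edgeR adjusted p = 0.0117). Cyp2g1, which is known from olfactory tissue, had 1.30, 1.78, 4.83 and 1.71 CPM in WT and 0.448, 0.101, 0.0518 and 0 CPM in SKO livers. Its log2 fold change of -4.01 ± 0.73 SE (edgeR adjusted p = 0.00151) rests on levels of which 3 in SKO livers were under the limit of 3 counts, and was -5.32 without SKO liver 1. Cyp2d26, an abundant Cyp2d member, was at 825, 1026, 1201 and 1162 CPM in WT, 906, 809, 888 and 513 CPM in SKO and 564, 609, 588 and 1299.7 CPM in DKO livers. The SKO livers overlapped WT (log2 fold change -0.42 ± 0.19 SE, edgeR adjusted p = 0.126), and DKO livers 1 to 3 were below every WT liver, with -0.45 ± 0.28 SE in DKO with liver 4 and -0.83 ± 0.14 SE without it (edgeR adjusted p = 0.325 and 0.000821). Cyp1b1, an extrahepatic enzyme, stood at 0.468, 1.40, 0.196 and 0.885 CPM in WT, 0.897, 0.860, 1.04 and 0.893 CPM in SKO and 2.03, 0.971, 1.29 and 0.864 CPM in DKO livers, with overlap throughout. Cyp2t4 was at 1.35, 0.891, 0.848 and 0.885 CPM in WT, 1.09, 0.607, 0.311 and 0.112 CPM in SKO and 0.773, 0.971, 0.669 and 0.216 CPM in DKO livers, and neither it nor Cyp1b1 was called in a comparison it was tested in. Cyp2s1, Cyp2w1 and Cyp2b23 had too few counts to test, and Cyp2b19, Cyp2c66, Cyp2j7 and Cyp2j12 had 0 counts in all livers.

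**Figure D3:**
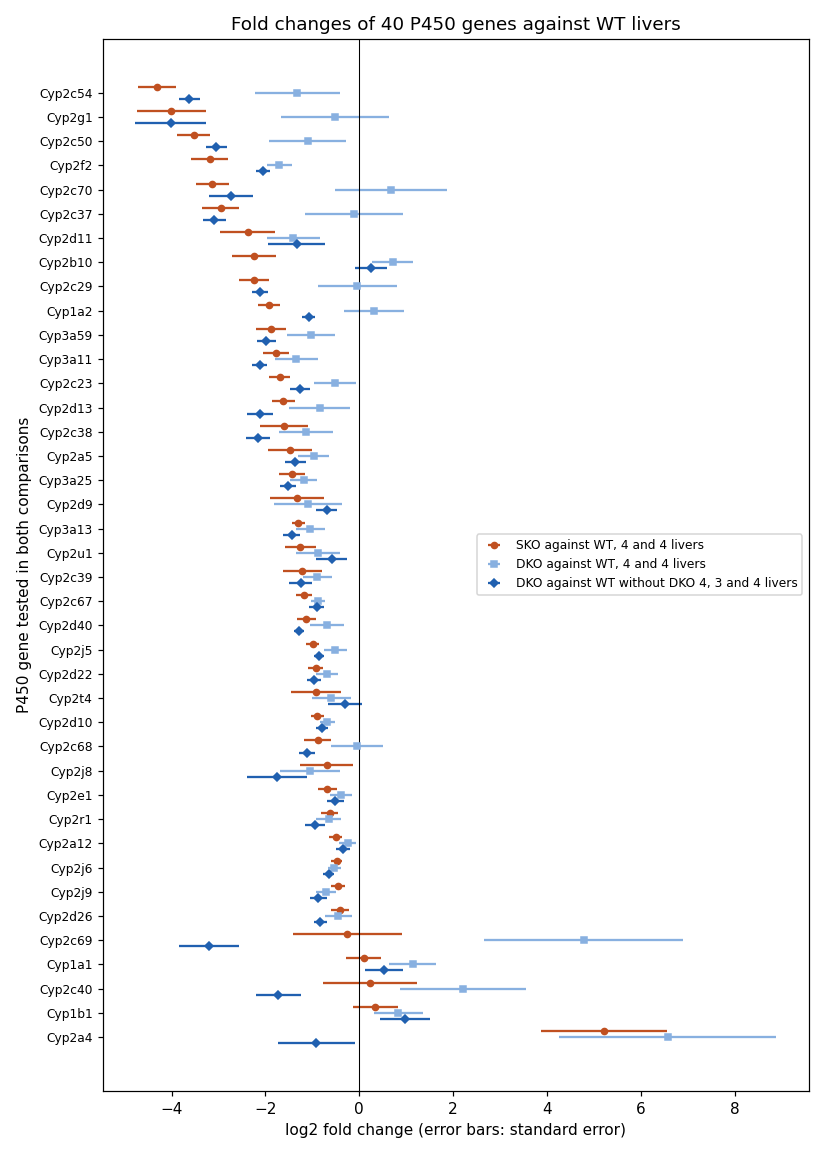
Log2 fold changes with SE are plotted for the 40 members tested in both comparisons, for SKO against WT (orange circles), DKO against WT (light blue squares) and DKO against WT without DKO liver 4 (dark blue diamonds). The light blue squares have wide error bars and lie nearer to 0 than the dark blue diamonds for most genes, as for Cyp2c54 at -1.32 against -3.62.

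DKO livers were compared with SKO livers, from which they differ by label in the KO of ATF3. Atf3 RNA in DKO livers 1 to 3, at 7.92 to 13.6 CPM, lay above every WT liver and below every SKO liver. In 37 tested members, 0 were called (edgeR quasi-likelihood test), among 14363 genes of which 0.0209% were called. At an unadjusted p under 0.05 there were 10 higher and 0 lower, where 4.11% and 2.38% of all genes tested were higher and lower. DESeq2 called 1 member higher, Cyp2b10, and 0.466% of all genes tested. It gave no adjusted p for several tested members, such as Cyp1a2, Cyp2c50 and Cyp2c54, which count here as not called. Without DKO liver 4, 0 members and 0.103% of 14589 genes were called, with 4 members higher and 2 lower at an unadjusted p under 0.05, where 3.77% and 3.45% of all genes tested were, and the median log2 fold change fell from 0.49 to 0.11. Without both Xist-high livers, 1 member was called higher, again Cyp2b10, where 0.0905% of 14358 genes were. Every DKO liver was above every SKO liver in 2 members, Cyp2b10 and Cyp1a2, which held for 2.3% of all genes tested.

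Cyp2b10, the classic target of the constitutive androstane receptor, was at 14.8, 15.2, 4.63 and 9.24 CPM in WT, 1.02, 1.72, 4.71 and 1.62 CPM in SKO and 16.2, 9.96, 12.6 and 32.7 CPM in DKO livers. Its SKO values were low, with SKO liver 3 just above the lowest WT liver, and all DKO values were above all SKO values. The log2 fold change was -2.25 ± 0.47 SE in SKO against WT (edgeR adjusted p = 0.00351), -2.88 ± 0.42 SE without SKO liver 3 (edgeR adjusted p = 0.000381) and 0.71 ± 0.44 SE in DKO against WT (edgeR adjusted p = 0.307). In DKO against SKO it was 2.98 ± 0.52 SE with all livers (edgeR adjusted p = 0.182, DESeq2 adjusted p = 1.54e-06), 2.48 ± 0.42 SE without DKO liver 4 (edgeR adjusted p = 0.0646) and 3.13 ± 0.29 SE without SKO liver 3 and DKO liver 4 (edgeR adjusted p = 0.00122). Without the filter on low counts, edgeR called Cyp2b10 higher with all livers. For Cyp1a2 the DKO against SKO value was 2.26 ± 0.70 SE (edgeR adjusted p = 0.557) and 0.84 ± 0.25 SE without DKO liver 4 (edgeR adjusted p = 0.4), and for Cyp2f2 it was 1.50 ± 0.47 SE and 1.14 ± 0.41 SE (edgeR adjusted p = 0.563 and 0.537). Cyp2e1 differed by 0.30 ± 0.27 SE and Cyp2c54 by 3.01 ± 1.00 SE, the latter falling to 0.68 ± 0.37 SE without DKO liver 4, on the log2 scale, and neither was called.

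**Figure D4:**
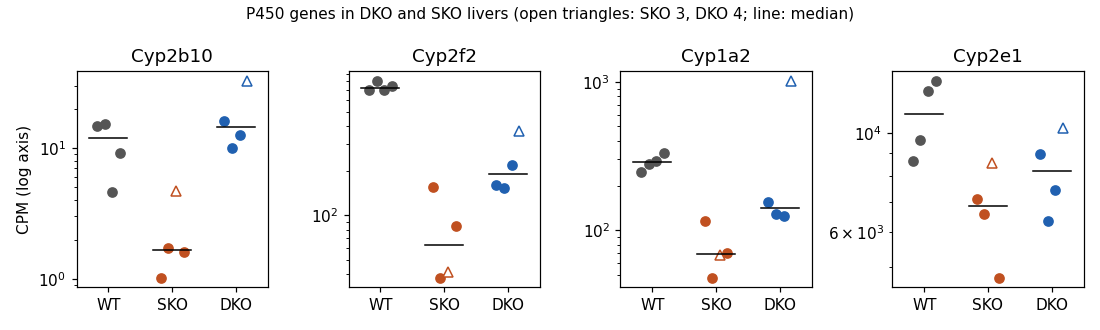
CPM on a log axis of Cyp2b10, Cyp2f2, Cyp1a2 and Cyp2e1 in 4 WT, 4 SKO and 4 DKO livers, with the group median as a line and open triangles for SKO liver 3 and DKO liver 4. In the Cyp2b10 panel all DKO livers, at 9.96 to 32.7 CPM, lie above all SKO livers, at 1.02 to 4.71 CPM.

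Of the 10 members listed as higher in female mouse liver, 8 were higher in both Xist-high livers than in any other liver, with 3 counts or more there, which held for 1.65% of all genes with counts. The exceptions were Cyp2b10, described above and within the WT range in SKO liver 3, and the scarce Cyp3a16. The 10 members listed as higher in female mouse liver summed to 33.7 to 57.1 CPM in WT livers, 6.15 to 33.1 CPM in SKO livers 1, 2 and 4 and 13.8 to 25.7 CPM in DKO livers 1 to 3, but to 646 CPM in SKO liver 3 and 2276 CPM in DKO liver 4. Among the other 10 livers, every SKO and DKO sum was below every WT sum. Cyp2b9, a female-predominant steroid hydroxylase, was at 0.156, 0.0636, 1.89 and 33.7 CPM in WT, 0.512, 3.59, 346 and 0 CPM in SKO and 0, 0.182, 0.0514 and 639.9 CPM in DKO livers. Its close copy Cyp2b13 had 64.9 CPM in SKO liver 3 and 214 CPM in DKO liver 4, and at most 0.277 CPM in the other 10 livers. Cyp2c40 reached 57.8 and 238 CPM in the same livers against 8.19 to 19.4 CPM in WT, and Cyp2c69 19.8 and 668 CPM against 2.93 to 11.6 CPM in WT. In SKO livers 1, 2 and 4, by contrast, Cyp2c40 was at 0.658 to 3.68 and Cyp2c69 at 0 to 0.279 CPM, below every WT liver. With all livers in, their log2 fold changes in SKO livers were 0.23 ± 0.99 SE and -0.25 ± 1.15 SE. Without SKO liver 3 they were -2.84 ± 0.48 SE for Cyp2c40 and -5.10 ± 0.70 SE for Cyp2c69 (edgeR adjusted p = 0.00106 and 0.00028), the latter a larger fall than that of Cyp2c54 at -4.69 in the same fit.

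Cyp3a41a, Cyp3a41b and Cyp3a44, female-predominant members of the Cyp3a cluster, had 2.02, 9.73 and 2.69 CPM in SKO liver 3, and 14.3, 12.0 and 23.1 CPM in DKO liver 4. In the other 10 livers each was under the limit of 3 counts, and Cyp3a16, of the same list, had at most 1.08 CPM, in DKO liver 4. Cyp3a41a, Cyp3a41b and Cyp3a44 had too few counts to be tested in SKO against WT, and without the filter on low counts they were called higher there. Cyp3a41a and Cyp3a41b share 90.8% and 88.2% of their 100-base stretches with another gene, so that their counts cannot be split with certainty. Shared stretches also make up 35.4% of Cyp2c69, 34.4% of Cyp2c40, 23.7% of Cyp2c67, 19.8% of Cyp2c68, 12.2% of Cyp2d11, 11.7% of Cyp2d10, 12.1% of Cyp2a5 and 11.2% of Cyp2a4. Their levels are uncertain by an amount that these shares do not measure. Cyp2d13 had no transcript in the set searched, so its share is unknown. Cyp2d9, the male-predominant testosterone 16-alpha-hydroxylase, went the other way, at 1893, 2280.4, 1851 and 2489 CPM in WT, 1310.1, 721, 75.2 and 1243 CPM in SKO and 1870.4, 1135, 909 and 52.0 CPM in DKO livers. SKO liver 3 and DKO liver 4 were the lowest of the 12. The log2 fold change of Cyp2d9 was -1.33 ± 0.58 SE in SKO (edgeR adjusted p = 0.106) and -0.94 ± 0.21 SE without SKO liver 3 (edgeR adjusted p = 0.00612), while in DKO livers it was -1.09 ± 0.72 SE with and -0.69 ± 0.23 SE without DKO liver 4 (edgeR adjusted p = 0.348 and 0.0331). Of genes that are not members, 12 are listed as higher in females, among them Cyp17a1, a P450 gene of another family. These 12 summed to 101 to 214 CPM in WT livers, 630.4 CPM in SKO liver 3 and 1051 CPM in DKO liver 4. The other SKO livers had 135 to 301 CPM and the other DKO livers 127 to 229.9 CPM. The 16 listed as higher in males include Cyp4a12a, Cyp4a12b and Cyp7b1, also of other P450 families. These 16 summed to 8159 to 12221 CPM in WT, 3167 to 7019.9 CPM in SKO livers 1, 2 and 4 and 3723 to 6778 CPM in DKO livers 1 to 3, all below WT. In SKO liver 3 and DKO liver 4 the sums were 667 and 826 CPM.

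**Figure D5:**
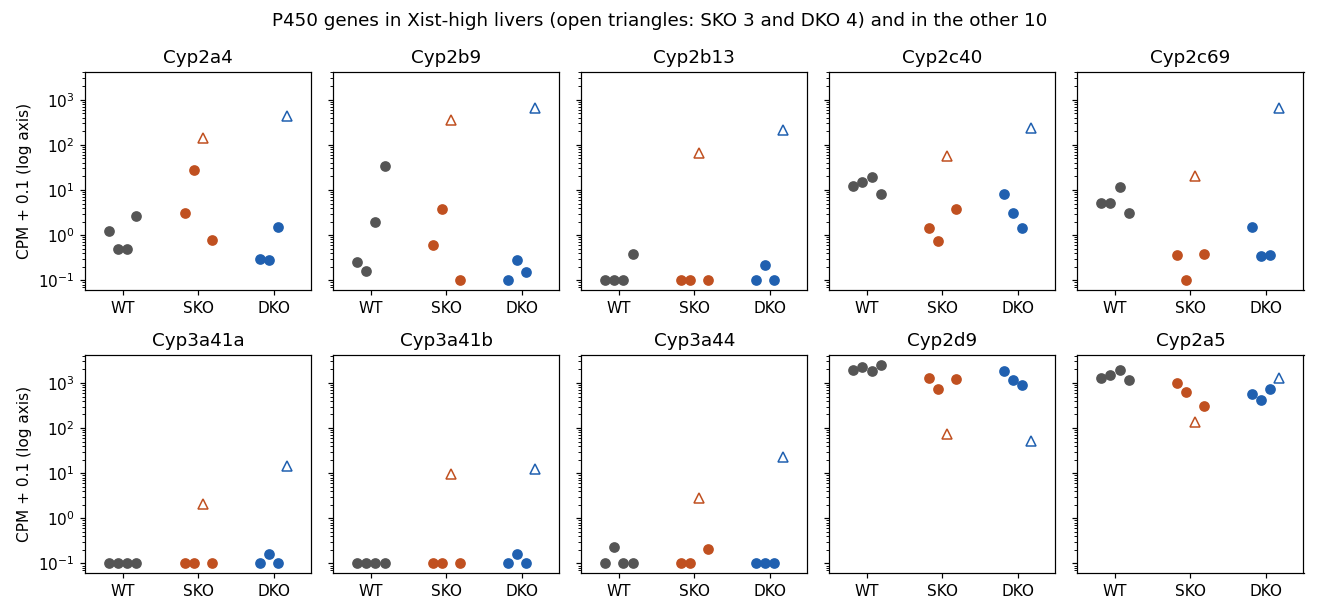
CPM + 0.1 on a log axis for 10 members in 4 WT, 4 SKO and 4 DKO livers, with open triangles for SKO liver 3 and DKO liver 4, the Xist-high livers. The triangles are the highest points of their groups for the first 8 genes and the lowest for Cyp2d9, whereas for Cyp2a5 they part, at 137 and 1261 CPM.

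Cyp2a4 and Cyp2a5 are close copies on chromosome 7 whose enzymes differ in substrate, the first a steroid 15-alpha-hydroxylase and the second a coumarin 7-hydroxylase. Cyp2a4, the 1 member that rose, was at 1.14, 0.382, 0.391 and 2.54 CPM in WT, 3.01, 27.2, 138 and 0.670 CPM in SKO and 0.193, 0.182, 1.39 and 432 CPM in DKO livers. The rise in SKO livers (5.20 ± 1.34 SE on the log2 scale, edgeR adjusted p = 0.0114) was highest in SKO livers 2 and 3, and SKO liver 4 was within the WT range. The rise was 5.98 on that scale without WT liver 4. Without SKO liver 3 it was 3.20 ± 0.99 SE (edgeR adjusted p = 0.0279), a drop from 36.9-fold to 9.18-fold, and in 1 fit over all 12 livers, or with the replicate number as a block, the rise was not called (edgeR adjusted p up to 0.0981). In DKO livers the log2 fold change was 6.57 ± 2.32 SE with liver 4 (edgeR adjusted p = 0.0946) and -0.92 ± 0.82 SE without it (edgeR adjusted p = 0.419). Cyp2a5 was at 1266, 1481, 1965 and 1148 CPM in WT, 1013, 616, 137 and 314 CPM in SKO and 564, 419, 716 and 1261 CPM in DKO livers, and fell in SKO livers (-1.47 ± 0.47 SE, edgeR adjusted p = 0.0318), a call that was lost without WT liver 2, WT liver 3, SKO liver 2 or SKO liver 4 (edgeR adjusted p up to 0.0868). SKO liver 3 had the highest Cyp2a4 and the lowest Cyp2a5 of the SKO livers. A further copy, Cyp2a22, was at 0.312, 0.382, 0.130 and 9.51 CPM in WT, 0.0640, 18.1, 60.0 and 15.0 CPM in SKO and 0.193, 0.425, 0.257 and 0.162 CPM in DKO livers, so that it was split within the WT and SKO groups.

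The 250 bases before the start of transcription of such copies were compared in RefSeq sequence (GRCm38.p6), which had an entry for 52 of the 61 members. Cyp2a4 and Cyp2a5 differ at 4 of 249 aligned bases, shown in capitals, although their RNA moved apart in SKO livers. Both lie on the plus strand, at chr7:26306943-26307191 and chr7:26835089-26835337.
Cyp2a4: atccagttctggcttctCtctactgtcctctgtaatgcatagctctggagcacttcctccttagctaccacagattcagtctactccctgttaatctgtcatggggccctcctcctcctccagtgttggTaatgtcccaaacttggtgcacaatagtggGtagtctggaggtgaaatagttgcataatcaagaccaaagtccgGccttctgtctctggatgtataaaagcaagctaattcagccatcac
Cyp2a5: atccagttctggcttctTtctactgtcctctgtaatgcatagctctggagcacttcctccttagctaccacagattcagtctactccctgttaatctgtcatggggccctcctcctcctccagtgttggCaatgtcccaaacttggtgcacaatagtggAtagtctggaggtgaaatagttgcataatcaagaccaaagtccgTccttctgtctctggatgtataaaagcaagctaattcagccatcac
Cyp2b9 and Cyp2b13, whose RNA appeared together in the Xist-high livers, differ at 2 of 250 bases, again in capitals. They too lie on the plus strand, at chr7:26173159-26173408 and chr7:26061245-26061494.
Cyp2b9: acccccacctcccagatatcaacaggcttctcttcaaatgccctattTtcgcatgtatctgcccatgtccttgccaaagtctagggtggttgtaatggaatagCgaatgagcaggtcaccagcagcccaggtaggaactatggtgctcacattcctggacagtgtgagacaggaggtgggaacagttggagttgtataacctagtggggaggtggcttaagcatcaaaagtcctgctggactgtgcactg
Cyp2b13: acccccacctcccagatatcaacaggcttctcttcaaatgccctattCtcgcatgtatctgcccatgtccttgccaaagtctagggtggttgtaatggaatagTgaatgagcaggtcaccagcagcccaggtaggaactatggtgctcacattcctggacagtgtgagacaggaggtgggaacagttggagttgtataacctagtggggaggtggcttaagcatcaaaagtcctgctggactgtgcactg

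Members that fell together differ in the short letter runs of this window. CAAAGTC, letters within known binding elements of the hepatocyte factor HNF4 alpha, was searched on both strands after these sequences had been seen. It is present in 34.6% of member promoters (18 of 52) and 3.80% of 27025 promoters in all. Cyp2c37 (plus strand, chr19:39992174-39992423) and Cyp2c50 (plus strand, chr19:40089429-40089678) fell alike in SKO livers and hold 2 and 0 matches. Cyp3a11 (minus strand, chr5:145879855-145880104) holds 1, and Cyp2b10 (plus strand, chr7:25897408-25897657) holds 0. With all livers Cyp2b10 was called higher in DKO than in SKO livers by DESeq2, and by edgeR only without the filter on low counts. Matches are in capitals.
Cyp2c37: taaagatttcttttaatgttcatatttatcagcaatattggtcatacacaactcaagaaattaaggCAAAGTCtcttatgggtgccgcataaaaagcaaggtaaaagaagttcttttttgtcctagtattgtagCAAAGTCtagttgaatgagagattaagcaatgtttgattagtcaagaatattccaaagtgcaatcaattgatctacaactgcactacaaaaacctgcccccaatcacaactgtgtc
Cyp2c50: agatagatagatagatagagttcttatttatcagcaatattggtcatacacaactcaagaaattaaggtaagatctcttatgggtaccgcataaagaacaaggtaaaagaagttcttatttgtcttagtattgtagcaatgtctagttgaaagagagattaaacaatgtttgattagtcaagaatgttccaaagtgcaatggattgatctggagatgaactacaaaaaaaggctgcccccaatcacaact
Cyp3a11: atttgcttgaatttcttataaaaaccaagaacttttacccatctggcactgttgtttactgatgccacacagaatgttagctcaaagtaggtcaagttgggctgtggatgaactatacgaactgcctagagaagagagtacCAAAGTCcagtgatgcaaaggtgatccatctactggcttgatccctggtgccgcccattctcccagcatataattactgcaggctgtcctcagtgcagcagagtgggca
Cyp2b10: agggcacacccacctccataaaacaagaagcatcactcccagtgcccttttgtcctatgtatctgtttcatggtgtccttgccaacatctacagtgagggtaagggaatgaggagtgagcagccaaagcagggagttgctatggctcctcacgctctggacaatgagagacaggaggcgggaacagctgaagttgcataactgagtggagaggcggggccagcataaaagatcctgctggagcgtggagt
The letters TATAAA, as in a TATA box, are in 48.1% of member promoters and 13.0% of all. They and the letters that follow were also searched on both strands anywhere in the window, so a match need not be a working site. TTCNNNGAA, the letters of STAT5 sites, is in 3.85% and 7.18%, and GCGTG, the core of aryl hydrocarbon receptor sites, in 15.4% and 28.2%. Members with a match share ancestry and cluster, so these shares are descriptions, and a missing match says only that the letters are not in this window.

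Genes that serve P450 enzymes are read against all genes tested, of which 16.7% rose and 15.4% fell in SKO livers. Of 7 electron donors and partners, 2 fell in SKO livers, Cyb5r3 (-0.79 on the log2 scale, edgeR adjusted p = 0.00028) and Cyb5b (-0.52, edgeR adjusted p = 0.0101). Por, the oxidoreductase that feeds all these enzymes, had a value of 0.56 ± 0.21 SE that missed the threshold (edgeR adjusted p = 0.0583). Without SKO liver 3, 1 of the 7 electron donors and partners rose and 2 fell, where 17.3% of all genes tested rose and 15.2% fell. Of 11 genes of heme supply, 3 rose and 3 fell. Hmox1, which breaks heme down, rose by 2.63 in SKO livers and by 3.11 in DKO livers (edgeR adjusted p = 0.000749 and 0.02), and Fech, which inserts the iron, fell by 0.68 in SKO livers (edgeR adjusted p = 0.00156). In DKO livers with all livers in, 0 electron donors were called by edgeR, and 1 heme gene rose and 0 fell. Without liver 4, 2 electron donors and 6 heme genes fell and 1 of each rose, where 17.5% of all genes tested fell and 18.4% rose.

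Among 21 tested receptors and factors that control P450 genes, 7 fell and 0 rose in SKO livers, where 15.4% of all genes tested fell and 16.7% rose. Those that fell were Hlf, Nfib, Rxra, Tef, Ahr, Foxa2 and Onecut1. Hlf and Tef, clock-output factors, fell by 1.16 and 0.65, and Ahr, the aryl hydrocarbon receptor, by 1.13 on the log2 scale (edgeR adjusted p = 0.00218, 0.00724 and 0.0105). The receptor genes Nr1i2 (pregnane X receptor) and Nr1i3 (constitutive androstane receptor) and Hnf4a were not called, with 0.16 ± 0.18, 0.03 ± 0.23 and -0.07 ± 0.13 SE. In DKO livers 5 factors fell with all livers and 11 without liver 4, where 4.39% and 17.5% of all genes tested fell. Of 4 tested genes of the aryl hydrocarbon receptor battery outside P450, 0 were called in SKO livers by edgeR, and of 15 genes induced through the constitutive androstane and pregnane X receptors, 3 rose and 6 fell. Of the 40 P450 genes outside the name pattern, 25 were tested, and 5 rose and 8 fell in SKO livers, against 16.7% and 15.4% of all genes tested. Their median log2 fold change was 0.16. In DKO livers 0 rose and 4 fell with all livers in (6.06% and 4.39% of all genes tested), and 8 rose and 8 fell without liver 4 (18.4% and 17.5%). Summed levels were 12994 to 14798 CPM in WT, 18871 to 22226 CPM in SKO and 17454 to 22904 CPM in DKO livers 1 to 3. DKO liver 4 had 9760 CPM, below every WT liver.

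Markers of hepatocytes, the cells that make these enzymes, were lower in part. The 8 markers found of 9 listed summed to 71062 to 87389.9 CPM in WT, 34460.0 to 62612 CPM in SKO, 39627 to 44993 CPM in DKO livers 1 to 3 and 93094 CPM in DKO liver 4. Of the 8, 4 were lower in SKO livers, where 15.4% of all genes tested fell. In DKO livers 1 was lower with all livers in and 5 without liver 4, where 4.39% and 17.5% of all genes tested fell. In whole liver, fewer cells of a type and less RNA per cell cannot be told apart. Sums of macrophage markers were 224 to 455 CPM in WT, 207 to 505 CPM in SKO and 129 to 199 CPM in DKO livers 1 to 3, of endothelial markers 206 to 425, 272 to 349 and 229 to 350.3 CPM, and of cholangiocyte markers 27.9 to 33.5, 7.37 to 14.3 and 9.61 to 18.9 CPM. DKO liver 4 had 455 CPM of the macrophage, 319.9 of the endothelial and 31.7 of the cholangiocyte markers. The sum of stellate markers was higher in every KO liver than in every WT liver, at 172 to 201 CPM in WT, 230.1 to 322 CPM in SKO and 212 to 279 CPM in DKO livers. Of the tested markers in SKO livers, 1 of 8 macrophage and 1 of 7 stellate markers rose, and 2 of 4 cholangiocyte markers fell. Of 3 erythroid markers 2 rose and 1 fell, where 16.7% of all genes tested rose and 15.4% fell. For endothelial and lymphocyte markers, 0 of 7 and 0 of 2 were called, and no neutrophil marker had enough counts to test. In DKO livers 0 macrophage markers rose and 1 fell with all livers in, where 6.06% of all genes tested rose and 4.39% fell. Without liver 4, 1 rose and 6 fell, where 18.4% rose and 17.5% fell. The part of these cells, and of the sex-linked differences, in the P450 values was not tested.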

How the data were processed

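The authors deposited raw read counts per Ensembl gene, not normalized, for 12 livers of 24 h-fasted mice (4 WT, 4 SKO, 4 DKO). The submitters' processing notes name HISAT2 and the builds GRCm38 and mm10, while the counting program is not given in the sources used here. The gene coordinates in the table equal those of GRCm38 (GENCODE M21) in start and end for 0 of 60 members found there, so the build of the table's coordinates is not given in the sources used here. The authors' own fold changes and p-values, and a table of FPKM, were not used. Libraries held 14710304 to 20030055 counts. Read strand is not stated, so overlapping antisense genes cannot be told apart. Nothing says how mice were assigned to libraries, so p-values measure the spread between these livers.

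Each pair of groups was tested with edgeR 4.0.16 in R 4.3.3 (TMM within the 8 livers compared, filterByExpr, quasi-likelihood, two-sided), with Benjamini-Hochberg adjustment over all genes tested and a threshold of 0.05. SE is the log2 fold change divided by the square root of F. Tested on simulated data with known changes, the scripts recovered most of them. Stretches of 100 bases shared between genes were counted in GENCODE M21 transcripts, and promoters come from RefSeq. Alternatives were DESeq2 1.42.0, RLE normalization, no filter, 1 fit over 12 livers, a replicate block, leaving out each liver, and leaving out both Xist-high livers.

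The members and lists were chosen with earlier results of these data known. Values per liver, or their range, were given for members past the threshold (beyond 10, the 5 largest rises and falls), the 2 most abundant members of a subfamily, and members of the sex and zonation lists. Cyp2a22, Por, Nr1i2, Nr1i3, Hnf4a and the 7 receptors and factors that fell were named after their values were seen.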

Additional observations from a re-analysis of the deposited data

Results flagged for a closer look

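Livers far from the other 3 of their group were sought among 124 values, each a member or a subfamily sum in 1 group, and 44 stood apart by Dixon's test. Chance alone would mark about 1 in 20 such groups, here 6.2, if the values were independent and normally distributed. They are not, since subfamily sums repeat their members, all values come from the same livers, and some rest on few counts. The 6.2 is thus only a rough guide. DKO liver 4 accounted for 24 and SKO liver 3 for 10 of the 44.

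In DKO liver 4 the values that stood apart from DKO livers 1 to 3, each higher than in those livers, were Cyp1a2 (1017 CPM), Cyp2a4 (432 CPM), Cyp2b13 (214 CPM), Cyp2b9 (639.9 CPM), Cyp2c29 (1384 CPM), Cyp2c37 (1249.9 CPM), Cyp2c40 (238 CPM), Cyp2c50 (1000.5 CPM) and Cyp2c54 (463 CPM). The rest in this liver were Cyp2c69 (668 CPM), Cyp2c70 (228 CPM), Cyp2d26 (1299.7 CPM), Cyp2g1 (6.21 CPM), Cyp2j5 (488 CPM), Cyp3a11 (2606 CPM), Cyp3a16 (1.08 CPM), Cyp3a41a (14.3 CPM), Cyp3a41b (12.0 CPM) and Cyp3a44 (23.1 CPM). Its subfamily sums that stood apart were Cyp1a (1021 CPM), Cyp2b (887 CPM), Cyp2c (6176 CPM), Cyp2j (563 CPM) and Cyp3a (4060.5 CPM).

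In SKO liver 3 the members that stood apart, each higher than in SKO livers 1, 2 and 4, were Cyp2b13 (64.9 CPM), Cyp2b9 (346 CPM), Cyp2c37 (97.1 CPM), Cyp2c40 (57.8 CPM), Cyp2c69 (19.8 CPM), Cyp3a16 (0.155 CPM), Cyp3a41a (2.02 CPM), Cyp3a41b (9.73 CPM) and Cyp3a44 (2.69 CPM), and the subfamily sum was Cyp2b (415 CPM).

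In other livers the values that stood apart were Cyp2j5 (393 CPM) in WT liver 1, Cyp3a44 (0.127 CPM) in WT liver 2, Cyp2c29 (576 CPM) and Cyp2g1 (4.83 CPM) in WT liver 3, Cyp2a22 (9.51 CPM), Cyp2b13 (0.277 CPM) and Cyp2b9 (33.7 CPM) in WT liver 4, Cyp2d10 (557 CPM) in SKO liver 2 and Cyp2c67 (73.0 CPM) in DKO liver 3, together with the Cyp2j sum of 479 CPM in WT liver 1. Of these, Cyp2j5 and the Cyp2j sum in WT liver 1 and Cyp2c67 in DKO liver 3 were lower than in the rest of their group, and Cyp2b13 in WT liver 4 and Cyp3a44 in WT liver 2 rest on few counts.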

How the results depend on the processing

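For SKO against WT, 31 members were lower and 1 higher under DESeq2 and under RLE normalization, as with edgeR and TMM. Members to which DESeq2 gave no adjusted p count as not called here and below. Without a filter 7 members were higher, in 1 fit over 12 livers 0 were higher and 24 lower, and leaving out 1 liver gave 1 to 2 higher and 25 to 34 lower. For DKO against WT, DESeq2 gave 11 lower, no filter 3 higher and 7 lower, and leaving out 1 liver gave 1 to 31 lower, the 31 without DKO liver 4, the 1 without WT liver 1 or WT liver 2, and 2 without any of the other livers. For DKO against SKO, DESeq2 gave 1 higher (Cyp2b10) and no filter 1 higher (again Cyp2b10) and 1 lower (Cyp2a22). Leaving out 1 liver gave 0 higher and 0 to 1 lower, the 1 without SKO liver 1 (Cyp2a22), and leaving out SKO liver 3 and DKO liver 4 together gave 1 higher. The cause of these moves was not tested.

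With the replicate number as a block (replicate block), 2 members were lower in DKO against WT, 32 lower and 1 higher (Cyp2a22 in place of Cyp2a4) in SKO against WT, and 0 in DKO against SKO. Livers of the same number did not deviate together, with correlations of -0.42 to 0.15 between their deviations from group means, so the numbers are not taken as pairs.

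Among single genes in DKO against WT, Cyp1a2 turned to -0.41 with the replicate block and ranged from -1.08 to 0.60 over livers left out, and Cyp2a4 from -0.92 to 7.35, Cyp2c29 from -2.11 to 0.30 and Cyp2c37 from -3.09 to 0.26. In SKO against WT, Cyp2c40 turned to -1.59 with the replicate block and ranged from -2.84 to 0.63 over livers left out, and Cyp2c69 from -5.10 to 0.23. Counting each fold change given above once per alternative, 517 values kept their direction and side of the threshold, 40 lost the threshold, 21 gained it and 17 turned, 11 of them in DKO against WT and 6 in SKO against WT. The DKO to SKO ratio of summed Cyp2b levels moved from 2.19 to 82.0 without SKO liver 3, 0.123 without DKO liver 4 and 4.62 without both. Without DKO liver 4 the ratio moved from 3.87 to 1.08 for Cyp2c, from 4.69 to 1.79 for Cyp1a and from 1.29 to 0.855 for Cyp3a, and without SKO liver 1 from 2.81 to 4.12 for Cyp2f. Against WT, the Cyp2b ratio moved from 5.30 to 0.141 in SKO without SKO liver 3 and from 11.6 to 0.653 in DKO without DKO liver 4, and without that liver the DKO ratios moved from 1.24 to 0.473 for Cyp1a, from 0.769 to 0.214 for Cyp2c and from 0.414 to 0.274 for Cyp3a. Depth limits what can be said of members under 0.145 to 0.196 CPM, the level of 3 counts, a limit that covers counting error only.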
